A study of Homo sapiens with 120 samples.

Results

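Unedited (WT) H1 human embryonic stem cells were followed through a mesoderm differentiation with bone morphogenetic protein 4 (BMP4), from the undifferentiated state on day 0 to day 5. The libraries were chosen by their titles, which give genotype, day and treatment, and no measured value entered the choice. They make up 12 of the 120 libraries of the series, in 6 groups of 2 libraries each, labelled a and b. The groups are day 0 without treatment and days 1, 2, 3, 4 and 5 of the BMP4 course. All 12 carry the unedited LNCPRESS1 locus, the long non-coding RNA that the study edits in its other lines. H1 is an established embryonic stem cell line, so each group is a single genetic background. The study also took the same cells through a neuroectoderm course (labelled SMADi) and an endoderm course (labelled Endo), which serve below as comparisons at matched days. No untreated cells of days 1 to 5 are among these libraries, so BMP4 and time in culture cannot be told apart. The labels do not say whether a and b came from separate cultures, so the p-values below measure the spread between these libraries, which may be technical.

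BMP4 is a secreted ligand of the TGF-beta superfamily. It binds type I and type II receptor kinases, which phosphorylate SMAD1, SMAD5 and SMAD9, and these enter the nucleus with SMAD4 and switch on direct targets such as the ID genes and the feedback inhibitors SMAD6, SMAD7 and BAMBI. In the embryo BMP4 acts upstream of WNT3 and NODAL at the primitive streak, the region where epiblast cells turn into mesoderm and endoderm. TBXT (brachyury), EOMES and MIXL1 mark the streak, MESP1 and APLNR the mesoderm that leaves it, and HAND1, GATA4 and FOXF1 lateral and extra-embryonic mesoderm. BMP4 can also lead human embryonic stem cells towards amnion-like or trophoblast-like fates, which share CDX2, GATA3 and TFAP2A with mesoderm cultures.

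The promoters of 4 genes show the letters through which these pathways are known to reach DNA. SMAD proteins bind the palindrome GTCTAGAC and, with BMP signals, the GC-rich site GGCGCC, and the Wnt effectors TCF and LEF bind CTTTGAT. Each motif was searched on both strands of 250 bases before to 50 bases after the start of each gene, in RefSeq promoters on GRCh38.p14. None of the 3 motifs contains another. GTCTAGAC was in 71 of 35116 promoters (0.202%), GGCGCC in 6748 (19.2%) and CTTTGAT in 919 (2.62%). Among 22 promoters of 14 of the 16 BMP target genes followed below, GTCTAGAC was in 1 (SMAD6), GGCGCC in 5 (of BAMBI, GATA2 and GATA3) and CTTTGAT in 1 (HAND1). Among 14 promoters of 13 of the 20 streak genes, CTTTGAT was in 2 (MIXL1 and SP5), GGCGCC in 1 (WNT3A) and GTCTAGAC in none. A match is a description of the letters and says nothing of binding. Printed are the feedback inhibitors SMAD6 (chr15:66701986-66702285, plus strand) and BAMBI (chr10:28677271-28677570, plus strand) and the streak factors MIXL1 (chr1:226223414-226223713, plus strand) and SP5 (chr2:170715087-170715386, plus strand). All 4 carry a match, so they do not stand for the other promoters of their lists. SMAD6 and BAMBI were among the 15 sustained rises of the 16 BMP target genes. MIXL1 and SP5 were among the 14 of 20 streak genes that rose at day 1. Capitals mark GTCTAGAC or its reverse complement in SMAD6, GGCGCC in BAMBI and CTTTGAT or its reverse complement in MIXL1 and SP5.
SMAD6: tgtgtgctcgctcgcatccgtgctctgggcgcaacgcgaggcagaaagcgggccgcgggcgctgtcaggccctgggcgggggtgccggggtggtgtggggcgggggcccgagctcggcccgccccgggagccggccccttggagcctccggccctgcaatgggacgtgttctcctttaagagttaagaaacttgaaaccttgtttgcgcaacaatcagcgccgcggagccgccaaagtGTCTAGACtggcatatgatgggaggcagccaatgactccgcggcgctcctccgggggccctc
BAMBI: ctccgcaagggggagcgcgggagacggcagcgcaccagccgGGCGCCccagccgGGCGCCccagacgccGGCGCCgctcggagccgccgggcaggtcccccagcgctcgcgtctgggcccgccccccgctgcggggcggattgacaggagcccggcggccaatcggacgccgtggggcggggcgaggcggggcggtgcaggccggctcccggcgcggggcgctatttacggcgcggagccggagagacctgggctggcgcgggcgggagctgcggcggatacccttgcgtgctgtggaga
MIXL1: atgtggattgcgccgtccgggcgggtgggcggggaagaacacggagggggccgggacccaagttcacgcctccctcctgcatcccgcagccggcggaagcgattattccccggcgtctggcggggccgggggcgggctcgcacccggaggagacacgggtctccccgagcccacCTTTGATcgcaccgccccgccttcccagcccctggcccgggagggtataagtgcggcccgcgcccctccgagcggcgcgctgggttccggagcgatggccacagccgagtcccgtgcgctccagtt
SP5: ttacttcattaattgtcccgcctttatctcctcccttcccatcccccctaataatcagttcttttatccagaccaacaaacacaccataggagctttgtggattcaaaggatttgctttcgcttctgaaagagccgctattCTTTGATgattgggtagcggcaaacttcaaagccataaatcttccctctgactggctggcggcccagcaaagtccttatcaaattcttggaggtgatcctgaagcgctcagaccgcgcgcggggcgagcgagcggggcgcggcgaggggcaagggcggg

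The deposited values are estimated counts per gene, and the 12 libraries held 48265562 to 71219834 of them. Of 62703 genes, 22477 passed the filter on low counts. Levels are given in CPM, the count relative to a library total scaled by TMM (trimmed mean of M-values). A level in CPM is not corrected for gene length, so levels are compared between days and not between genes. The first principal component (52.5% of the variance) ordered the days, with scores of -63.75 and -55.64 at day 0, -50.93 and -43.31 at day 1, -22.94 and -12.22 at day 2, 24.56 and 26.35 at day 3, 48.38 and 51.36 at day 4, and 44.34 and 53.79 at day 5. Days 4 and 5 overlapped on it and the other days did not. Mitochondrial transcripts made up 5.91% to 8.56% of the counts in the b libraries and 3.95% to 5.81% in the a libraries, and b was higher on all 6 days. Whether this moved any result was not tested. "Rose" and "fell" below mean an adjusted p under 0.05 in edgeR's quasi-likelihood test with Benjamini-Hochberg adjustment over the 22477 genes, and errors of log2 differences are standard errors. In bulk RNA, fewer cells of a type and less RNA per cell cannot be told apart.

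Of the 3 marker genes named for this course, TBXT was highest at day 2 and HAND1 at days 4 and 5, and CDX2 was above day 0 from day 1 on. TBXT, the T-box factor of the primitive streak, had 0.104 and 0.0736 CPM at day 0, 93.3 and 103 at day 1, 148 and 158 at day 2, 122 and 99.9 at day 3, 46.2 and 38.3 at day 4, and 9.52 and 11.2 at day 5 (libraries a and b). It was near 0 in both day 0 libraries, high by day 1 and lower again at days 4 and 5 than at days 1 to 3 in both libraries. TBXT was 10.07 ± 0.25 higher on the log2 scale at day 1 than at day 0 (adjusted p = 3.92e-08, edgeR quasi-likelihood test), fell by 1.39 ± 0.14 between days 3 and 4 and by 2.03 ± 0.15 between days 4 and 5, and was still 6.82 ± 0.25 above day 0 at day 5.

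HAND1, a basic helix-loop-helix factor of lateral and extra-embryonic mesoderm, had 0.0692 and 0 CPM at day 0, 4.32 and 6.23 at day 1, 33.4 and 37.9 at day 2, 133 and 106 at day 3, 268 and 188 at day 4, and 216 and 252 at day 5. Each of days 1, 2 and 3 lay above the day before it in both libraries, while days 4 and 5 overlapped. HAND1 rose by 7.12 ± 0.52 in day 1, by a further 2.76 ± 0.26 in day 2 and by 1.75 ± 0.24 in day 3 (log2 differences), and the step of 0.93 ± 0.24 in day 4 missed the threshold (adjusted p = 0.0801, edgeR quasi-likelihood test). CDX2, a caudal homeobox factor of posterior streak, trophectoderm and amnion, had 0.0519 and 0.0736 CPM at day 0, 12.1 and 17 at day 1, 4.18 and 5.48 at day 2, 24 and 10.9 at day 3, 29.8 and 9.37 at day 4, and 9.18 and 17.9 at day 5. CDX2 was above day 0 on each later day (by 7.81 ± 0.88 on the log2 scale at day 1 and 7.71 ± 0.88 at day 5). None of its steps from day to day after day 1 passed the test, and libraries a and b lay far apart on days 3 and 4.

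**Figure D1:**
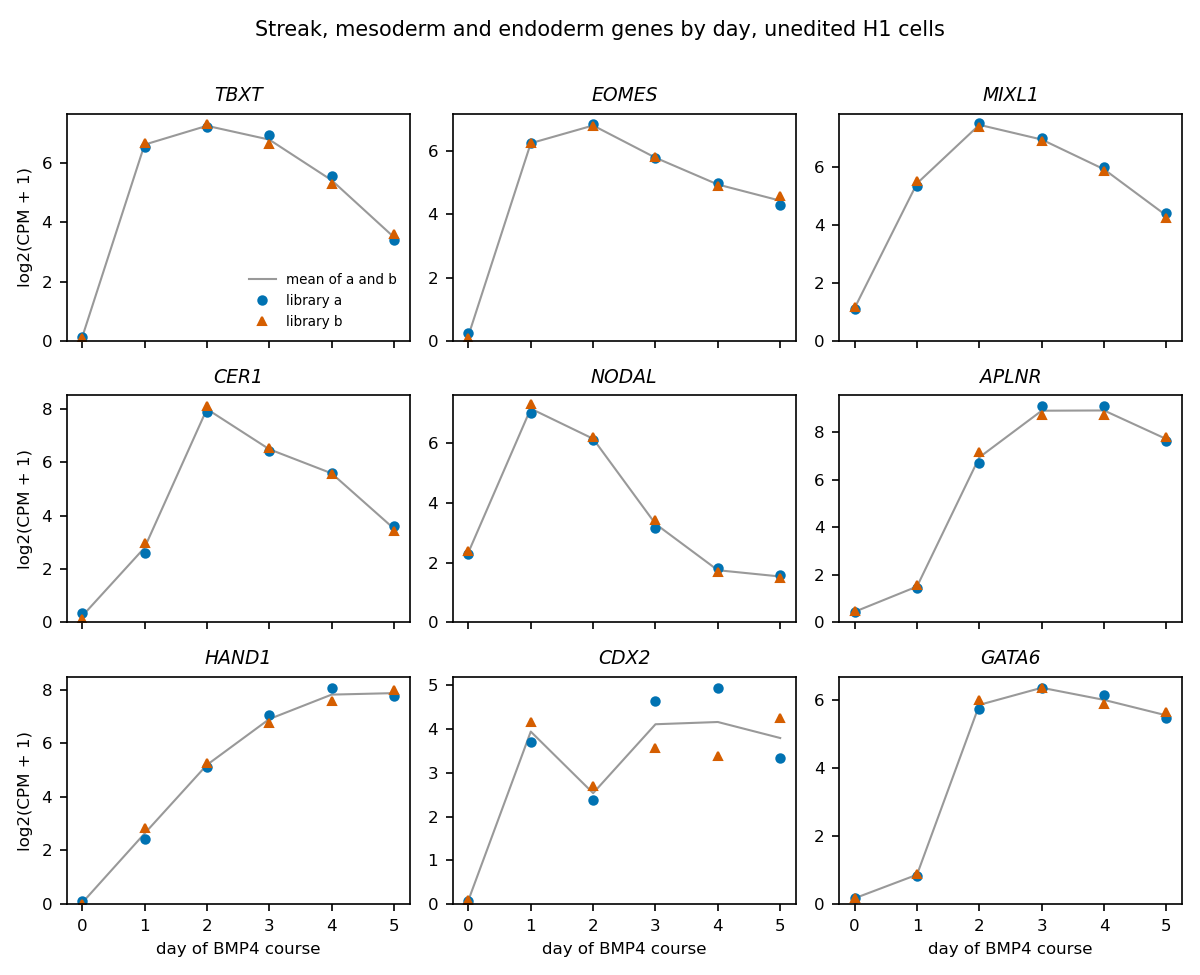
Levels of 9 marker genes over days 0 to 5 of the BMP4 course in unedited H1 cells (x axis, day; y axis, log2 of CPM + 1). Blue circles are library a, orange triangles library b and the grey line joins their means. TBXT, EOMES and MIXL1 were highest at day 2, NODAL at day 1, APLNR at days 3 and 4, and HAND1 at days 4 and 5.

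With all 12 libraries the number of genes that differed from day 0 was larger on each later day, an order that turned without some single libraries, and the steps after day 2 involved fewer genes. Day 1 differed from day 0 in 4039 genes, 18% of those tested, of which 2027 were higher and 2012 lower. Day 2 differed from day 0 in 4206 genes (18.7%, with 2273 higher and 1933 lower), day 3 in 5850 (26%, with 3123 higher and 2727 lower), day 4 in 7786 (34.6%, with 4194 higher and 3592 lower) and day 5 in 8052 (35.8%, with 4310 higher and 3742 lower). From each day to the next, 4030 genes differed between days 2 and 1 (17.9%), 2382 between days 3 and 2 (10.6%), 473 between days 4 and 3 (2.1%) and 222 between days 5 and 4 (0.988%). Over days 0 to 5, 12224 genes (54.4%) showed some change. The plot of calls by day shows the bars against day 0 lengthening and the day-to-day bars shrinking.

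With the replicate letter as a block, the counts were 6463, 7198, 6747, 5532, 2700 and 887 for day 1 against day 0, day 2 against day 0, day 2 against day 1, day 3 against day 2, day 4 against day 3 and day 5 against day 4, and they held all the genes called without the block. The counts depended on single libraries. Against day 0 they fell to 1964 without library b of day 1, 1905 without library a of day 2, 3310 without library a of day 3 and 5013 without library b of day 5. The day-to-day counts fell to 1412 without library b of day 1 (day 2 against day 1), 450 without library a of day 2 (day 3 against day 2), 80 without library b of day 3 (day 4 against day 3) and 31 without library b of day 5 (day 5 against day 4). The order of the days turned in several of these counts. Day 2 fell below day 1 without library a of day 0 (2691 at day 2, against 3017 at day 1), library a of day 2 (1905, against 3489) or library b of day 2 (2264, against 3504). Day 3 fell below day 2 without library a of day 3 (3310, against 3759), and day 4 below day 3 without library b of day 4 (5971, against 6150). Day 5 fell below day 4 without library b of day 0 (5988, against 6112), library a of day 5 (5764, against 7224) or library b of day 5 (5013, against 7246). Each such omission leaves a day with 1 library, whose spread is taken from the other days.

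**Figure D2:**
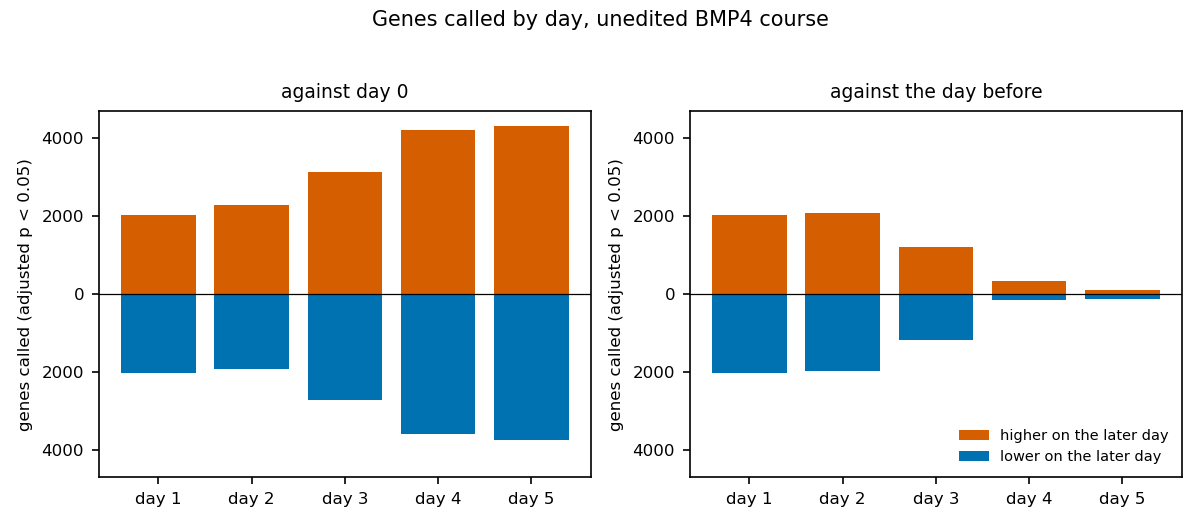
Number of genes called per comparison (y axis) against day 0 (left) and against the day before (right), with higher genes above 0 in orange and lower genes below 0 in blue. The last bars against day 0 hold 4310 higher and 3742 lower genes, and the last day-to-day bar holds 99 higher genes.

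The genes were sorted by the shape of their course, using called differences of at least 2-fold. A transient peak rose above day 0 and by day 5 was at least 2-fold under its peak, but could still lie above day 0. A peak then loss also ended below day 0. A sustained rise or loss differed from day 0 at day 5 without such a turn back from its peak or trough. It could begin on any day, day 5 included. A transient dip fell below day 0 and by day 5 was at least 2-fold above its trough. Transient peaks numbered 571 (2.54% of tested genes), with the highest level on days 1, 2, 3 and 4 in 227, 208, 117 and 19 genes. Sustained rises numbered 1997 (8.88%) and began on days 1 to 5 in 434, 282, 504, 430 and 347. Sustained losses numbered 2236 (9.95%) and began at days 1 to 5 in 445, 332, 485, 457 and 517. Transient dips numbered 521 (2.32%), of which 373 had their lowest level at day 1, and 43 genes (0.191%) peaked and then ended below day 0. These days are each the day of the highest, lowest or first called mean, so they follow from the sorting and are given as counts. Without library b of day 5 there were 362 transient peaks and 1496 sustained losses, and without library b of day 0 there were 26 genes of peak then loss and 329 transient dips.

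**Figure D3:**
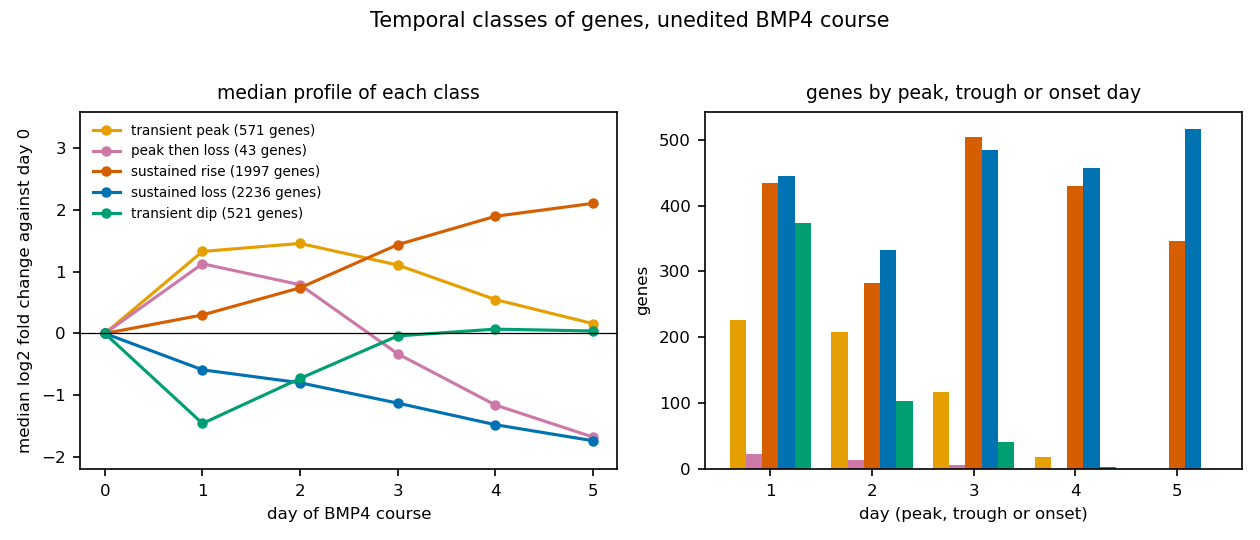
Left, the median log2 difference from day 0 of the genes in each of 5 course classes over days 1 to 5. Right, the number of genes by the day of the peak (transient peak, peak then loss), the trough (transient dip) or the onset (sustained rise, sustained loss). The median transient peak reached 1.46 at day 2 and was 0.16 at day 5, and the median sustained rise climbed to 2.11 at day 5.

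Day 1 brought a steep rise of streak genes and of several genes outside the known streak set. The largest day 1 rises among genes of at least 5 CPM were in TBXT, PCAT14, EOMES, TFAP2A and HPGD. PCAT14, a long non-coding RNA, had 927 and 1030 CPM at day 1, against 1.12 and 1.18 at day 0, and fell to 126 and 106 CPM at day 2. HPGD, which degrades prostaglandins, had 201 and 186 CPM at day 1, against 0.675 and 0.626 at day 0. Both groups of libraries lay far apart for each gene. Among the transient peaks of day 1 were PCAT14, NTS (neurotensin), SERPINB9 (a granzyme B inhibitor), CLDN10 (a tight junction claudin) and HPGD. CLDN10 had 24.9 and 24.6 CPM at day 0, 319 and 383 at day 1, 59.9 and 57.2 at day 2, 24.1 and 23.8 at day 3, 18.3 and 16.9 at day 4, and 24.8 and 25.2 at day 5. The libraries of days 3 to 5 lay close to those of day 0.

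The deepest falls of day 1 included NPTX1, CUZD1 and GALNT9. NPTX1, a secreted neuronal pentraxin, had 622 and 473 CPM at day 0, 15.3 and 10.8 at day 1, 27 and 25.9 at day 2, 12.2 and 12.3 at day 3, 2.83 and 3.12 at day 4, and 0.854 and 0.696 at day 5. It fell by 5.38 ± 0.20 on the log2 scale at day 1 and was 9.44 ± 0.25 below day 0 at day 5, with no overlap between day 0 and any later day. GDF1 and MEF2B were also among the deepest falls, but GDF1 overlaps CERS1, which can split estimated counts, and MEF2B had 5.34 and 33.4 CPM in the 2 day 0 libraries, so both are uncertain. Sustained losses from day 1 included MIAT (a long non-coding RNA), FZD7 (a Wnt receptor), STC1 (stanniocalcin) and LRIG1 (an inhibitor of receptor tyrosine kinases). FZD7 had 71.4 and 59.9 CPM at day 1, against 278 and 258 at day 0, and 119 and 112 at day 5.

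At day 2 the largest rises over day 1 were in DKK4 (a Wnt antagonist), GATA6-AS1, RSPO3 (an enhancer of Wnt signalling) and LHX1 (a LIM factor of the streak and organiser), besides GDF1. DKK4 had 0 and 0 CPM at day 0, 0 and 0.0217 at day 1, 8.05 and 7.15 at day 2, 0.0777 and 0.0984 at day 3, 0 and 0.0388 at day 4, and 0.0285 and 0 at day 5. The day 2 pair lay far above all other days, and its level was at least 142-fold higher than day 0, taking a floor of 3 counts per library. The deepest called falls at day 2 were in 2 histone genes, H2AC6 and H2BU1, whose family shares reads, and in POU4F1, FAM167A and PCAT14. The call of H2BU1 was lost without library b of day 1 or a or b of day 2 (adjusted p of 0.0697, 0.0671 and 0.0705, edgeR quasi-likelihood test). FAM167A had 5.13 and 5.36 CPM at day 2, against 48.3 and 51.2 at day 1.

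At day 3 the largest rises over day 2 were in LUM (lumican), CFC1 (a Nodal co-receptor of the Cripto family), NRG2 (a neuregulin), COL3A1 (type III collagen) and DGKG. COL3A1 had 7.81 and 5.75 CPM at day 3, against 0.406 and 0.266 at day 2, and 118 and 126 at day 5. CFC1 had 31.4 and 19.8 CPM at day 3, against 0.619 and 1.03 at day 2, and 174 and 127 at day 4. CFC1 has a near-identical copy, CFC1B, between which the estimated counts can be split, so its level is uncertain. The deepest falls were in DKK4, OR52A1, ARHGAP40, NODAL and LEFTY1.

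At day 4 the largest called differences from day 3 were higher levels of TMEM88, MYL4, FMOD (fibromodulin), MYL7 and IGF2 and lower levels of NPTX1, PPP1R17, NODAL, CUZD1 and CSMD1. Without library a or b of day 3 the call of FMOD was lost (adjusted p of 0.0607 and 0.0797, edgeR quasi-likelihood test), without library b of day 3 those of IGF2 (0.12) and CUZD1 (0.0568), and without library a of day 3 or b of day 4 that of PPP1R17 (0.0974 and 0.0714). TMEM88, a Wnt inhibitor of cardiac precursors, had 0.657 and 0.718 CPM at day 0, 1.08 and 0.803 at day 1, 0.929 and 1.12 at day 2, 4.02 and 3.19 at day 3, 73.6 and 49.6 at day 4, and 181 and 214 at day 5. MYL4 and MYL7 encode the atrial essential and regulatory myosin light chains. MYL4 had 16.4 and 12.8 CPM at day 4, against 0.952 and 0.905 at day 3, and 34.7 and 42.8 at day 5. Both genes were low in both libraries up to day 2. At day 5 the largest called differences from day 4 were higher levels of NKX2-5, TPPP3, CST1, APOA1 and CALB2 and lower levels of WNT8A, MESP2, TACR1, CER1 and KCNK17. Of these, CST1, CALB2, WNT8A, CER1 and KCNK17 kept their call when any 1 library was left out. Calls were lost for TPPP3 without library a or b of day 4 or library b of day 5 (adjusted p of 0.0611, 0.117 and 0.14, edgeR quasi-likelihood test) and for APOA1 without library a or b of day 5 (0.062 and 0.0652). They were also lost for MESP2 without library b of day 4 or a of day 5 (0.0618 and 0.0929) and for TACR1 without library a of day 4 or a or b of day 5 (0.0611, 0.169 and 0.224). NKX2-5, a cardiac homeobox factor, had 7.2 and 13.8 CPM at day 5, against 1.44 and 0.679 at day 4. The 2 days did not overlap, but the call (adjusted p = 0.0158, edgeR quasi-likelihood test) was lost without library b of day 4 (adjusted p = 0.0976) and without library b of day 5 (adjusted p = 0.153).

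Between day 0 and day 5 the highest rises were in ANKRD1, LUM, HOXB3, HOXB6 and HAND1. ANKRD1, a cardiac ankyrin repeat protein and YAP target, had 212 and 263 CPM at day 5, against 0 and 0 at day 0, which is at least 4440-fold higher. LUM, a proteoglycan that binds collagen fibrils, had 47.5 and 47.5 CPM at day 5, against 0 and 0 at day 0, at least 887-fold higher. The deepest falls at day 5 were in UTP14C, NPTX1, CUZD1, D21S2088E and PLA2G4C. UTP14C overlaps ALG11 on the same strand and had 0 CPM in both libraries of days 4 and 5, and its estimate is uncertain.

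Of 20 streak genes, 14, 20, 19, 17 and 16 were higher than day 0 on days 1 to 5. Among all tested genes, 9.02%, 10.1%, 13.9%, 18.7% and 19.2% were higher on those days, and 8.95%, 8.6%, 12.1%, 16% and 16.6% were lower. The same shares stand beside the counts against day 0 of every list below. The median log2 difference of the streak genes from day 0 was 3.40, 6.60, 6.31, 5.54 and 5.14 on days 1 to 5. That of all tested genes stayed between -0.00 and 0.02. Of the 20, 16 were transient peaks, 3 sustained rises and 1 a peak then loss. From day to day, 14 rose and 2 fell at day 2 (9.2% and 8.73% of all tested genes), 6 rose and 9 fell at day 3 (5.4% and 5.2%), 0 rose and 6 fell at day 4 (1.45% and 0.65%), and 0 rose and 9 fell at day 5 (0.44% and 0.547%).

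Within the streak set the peaks were staggered. FGF8, a ligand needed for cells to leave the streak, was highest at day 1 with 8.82 and 11.2 CPM, against 0.847 and 0.865 at day 0. EOMES, the T-box factor of anterior streak and endoderm, had 0.19 and 0.0552 CPM at day 0, 74.3 and 74.9 at day 1, 113 and 108 at day 2, 53.7 and 54.4 at day 3, 30.8 and 28.5 at day 4, and 18.6 and 22.6 at day 5. MIXL1, a homeobox factor of mesendoderm, had 1.14 and 1.25 CPM at day 0, 39.3 and 45.3 at day 1, 182 and 167 at day 2, 128 and 117 at day 3, 62.4 and 56.8 at day 4, and 20.2 and 17.9 at day 5. In both genes every later library lay above both day 0 libraries and the day 2 pair lay above all others. GSC, the organiser factor goosecoid, had 10.5 and 9.83 CPM at day 2, against 0.173 and 0.129 at day 0, and returned to 0.256 and 0.184 at day 5. CER1, a secreted antagonist of Nodal, BMP and Wnt ligands, had 234 and 274 CPM at day 2, against 5.09 and 6.94 at day 1, and 11.3 and 9.6 at day 5.

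Other streak genes were highest at days 3 and 4. APLNR, the apelin receptor of nascent mesoderm, had 0.346 and 0.386 CPM at day 0, 1.71 and 2 at day 1, 104 and 144 at day 2, 547 and 420 at day 3, 555 and 420 at day 4, and 195 and 224 at day 5. MESP1, which marks cardiac and cranial mesoderm leaving the streak, had 0.311 and 0.294 CPM at day 0, 0.307 and 0.391 at day 1, 8.96 and 14.6 at day 2, 38.8 and 39.4 at day 3, 39.9 and 42.3 at day 4, and 10.7 and 14.9 at day 5. Both genes were near their day 0 level at day 1, when TBXT and EOMES were already high. MSGN1, a factor of presomitic mesoderm, had no count on days 0 and 1 and 7.71 and 6.63 CPM at day 3, at least 134-fold above day 0. Outside the list, WNT5A, a non-canonical Wnt ligand of migrating mesoderm, had 224 and 150 CPM at day 4, against 4.65 and 4.77 at day 0.

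In the Nodal pathway, the ligand NODAL peaked at day 1 and ended below day 0. It had 3.91 and 4.23 CPM at day 0, 126 and 156 at day 1, 66.7 and 71.9 at day 2, 8 and 9.66 at day 3, 2.5 and 2.21 at day 4, and 1.98 and 1.82 at day 5. It rose by 5.12 ± 0.17 at day 1 on the log2 scale, fell by 1.03 ± 0.14, 2.97 ± 0.15 and 1.90 ± 0.16 on the next 3 days, and ended 1.09 ± 0.16 below day 0 (adjusted p = 0.000489, edgeR quasi-likelihood test). The feedback inhibitor LEFTY1 had 45.2 and 51.8 CPM at day 1, against 2.09 and 2.37 at day 0, and returned to 1.81 and 2.16 CPM at day 3. LEFTY2, its neighbour and close relative, also peaked at day 1 with 25.8 and 28.5 CPM, against 4.43 and 3.48 at day 0, reached 3.63 and 3.9 at day 3, and was back at 11.4 and 15.9 at day 5. The co-receptor TDGF1 (Cripto) declined, with 255 and 175 CPM at day 5, against 878 and 773 at day 0. Its relative CFC1, described above, was above day 0 on days 3 to 5. Of 13 Nodal pathway genes, 6 rose and 2 fell at day 1, 6 rose and 1 fell at day 3, and 5 rose and 3 fell at day 5, all against day 0. Of all tested genes, 9.02% rose and 8.95% fell at day 1, 13.9% and 12.1% at day 3, and 19.2% and 16.6% at day 5. The receptor ACVR1C and the effector SMAD2 passed the test on no day against day 0 (SMAD2 stayed between 64.5 and 81.8 CPM).

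Of 13 tested Wnt ligands, 4, 6, 9, 9 and 9 were above day 0 on days 1 to 5, and 3 were below it at day 1. Higher genes made up 9.02%, 10.1%, 13.9%, 18.7% and 19.2% of all tested genes on these days, and lower genes 8.95% at day 1. The median log2 difference of the ligands at day 5 was 3.31. WNT3, the streak ligand downstream of BMP4, had 45 and 50.2 CPM at day 1, against 1.54 and 1.47 at day 0, and 16.4 and 18.3 at day 5. WNT8A had 0.0173 and 0.0552 CPM at day 0, 10.8 and 9 at day 1, 14.5 and 17.3 at day 2, 49.7 and 36.9 at day 3, 33.9 and 18.6 at day 4, and 2.29 and 3.38 at day 5. It fell by 3.22 ± 0.32 on the log2 scale in the last day. WNT6 rose from day 1 and WNT11 from day 3, with 10.7 and 12 CPM for WNT6 at day 5, against 0.0346 and 0.0368 at day 0, and 3.47 and 4.59 CPM for WNT11, against 0.536 and 0.184.

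Among 17 Wnt targets, most rose and AXIN2 fell. SP5, a direct target that represses others, had 95.1 and 135 CPM at day 1, against 0.692 and 0.313 at day 0, and stayed at 55.9 and 72.2 CPM at day 5. LEF1, the partner of beta-catenin, and LGR5, the R-spondin receptor, reached their highest levels at days 4 and 5. LEF1 had 61.9 and 67.4 CPM at day 5, against 0.536 and 1.07 at day 0, and LGR5 had 27.4 and 24.3 CPM, against 0.156 and 0.0552. AXIN2, the negative feedback gene most used to read the pathway, did not pass the test on days 1 to 3 against day 0 and fell at day 5 to 13.5 and 11.3 CPM, against 36.1 and 42.1 at day 0. In all, 10 targets rose and 1 fell on each of days 1, 2 and 3, and 12 rose and 3 fell at day 5.

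Among the FGF and ERK genes, the streak ligands peaked at days 1 and 2, and DUSP6 and ETV4 were lowest at day 3. FGF4 had 43.9 and 39.8 CPM at day 2, against 4.17 and 3.18 at day 0, and 4.37 and 3.19 at day 5. FGF17 had 59.5 and 71.3 CPM at day 2, against 0.208 and 0.534 at day 0. DUSP6, a phosphatase that ERK induces against itself, had 51 and 47.1 CPM at day 0, 44.7 and 52.9 at day 1, 30.5 and 34.2 at day 2, 19.6 and 17.7 at day 3, 76.6 and 60.3 at day 4, and 181 and 267 at day 5. Day 3 was the lowest pair and day 5 the highest, with no overlap with any other day. DUSP6 rose by 1.87 ± 0.19 at day 4 and by 1.71 ± 0.19 at day 5 on the log2 scale. ETV4, an ETS factor that follows FGF signals, had 45 and 52 CPM at day 3, against 136 and 134 at day 0, and 96.4 and 99.3 at day 5. Of the 20 genes of this list, 9 fell and 0 rose at day 3 against day 2 (5.2% and 5.4% of all tested genes). At day 4 against day 3, 6 rose and 1 fell (1.45% and 0.65%).

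BMP target genes rose at day 1, many fell back at day 2, and several rose again at days 3 and 4. Among the 16 genes, those that rose against day 0 numbered 15, 14, 15, 16 and 15 on days 1 to 5, and none fell. The median log2 difference was 3.16, 2.61, 3.08, 4.16 and 4.32. Between days 1 and 2, 10 of the 16 fell and 2 rose (HAND1 and HEY1, the call of HEY1 being lost without library b of day 1 at an adjusted p of 0.0567, edgeR quasi-likelihood test), with a median of -0.81 against 0.02 over all tested genes. At day 3 against day 2, 5 rose, and at day 4 against day 3, 8 rose, with none falling on either day. Of all tested genes, 8.73% fell and 9.2% rose between days 1 and 2. At day 3 against day 2, 5.4% rose and 5.2% fell, and at day 4 against day 3, 1.45% and 0.65%.

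ID1, an inhibitor of basic helix-loop-helix factors and a direct SMAD target, had 30.1 and 48.7 CPM at day 0, 395 and 402 at day 1, 152 and 150 at day 2, 237 and 257 at day 3, 399 and 458 at day 4, and 371 and 378 at day 5. Day 2 was the lowest of the BMP4 days in both libraries. ID1 rose by 3.34 ± 0.19 at day 1 on the log2 scale and fell by 1.40 ± 0.18 at day 2 (adjusted p = 0.00104, edgeR quasi-likelihood test). GATA2, a zinc finger factor of extra-embryonic and blood lineages, had its fall between these days too, with 3.37 and 4.55 CPM at day 2, against 20.5 and 15.9 at day 1, and 39.3 and 41.4 at day 5. GATA3, its relative, did not pass the test at that step, with 19.1 and 18.6 CPM at day 2, against 24.1 and 23.6 at day 1. The inhibitory SMAD7 had 21.6 and 18.4 CPM at day 2, against 51.2 and 47.6 at day 1, and the inhibitory SMAD6 had 26 and 25.7, against 38.6 and 43.7. SMAD6 and the pseudoreceptor BAMBI, whose promoters are printed above, rose again at day 4. SMAD6 had 97.4 and 104 CPM at day 4, against 31 and 33.7 at day 3, and BAMBI had 253 and 196, against 106 and 97.3. MSX1, a homeobox repressor, had 0.346 and 0.147 CPM at day 0, 6.67 and 8.53 at day 1, 3.06 and 4.72 at day 2, 23.5 and 20.5 at day 3, 116 and 98.3 at day 4, and 138 and 177 at day 5.

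**Figure D4:**
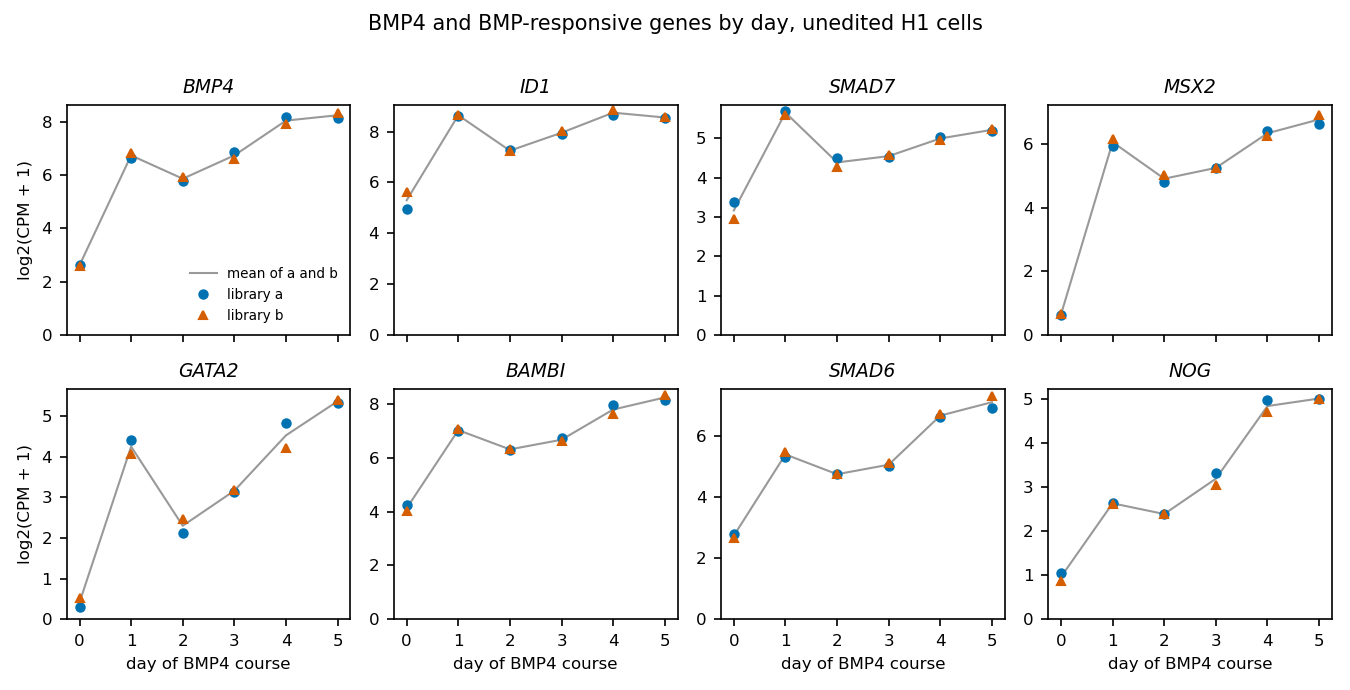
Levels of BMP4, of 6 BMP targets and of the antagonist NOG over days 0 to 5 (x axis, day; y axis, log2 of CPM + 1; blue circles library a, orange triangles library b, grey line their mean). ID1, SMAD7 and GATA2 were lower at day 2 than at day 1, and BMP4 and NOG were highest at days 4 and 5.

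BMP4 transcripts of the cells' own gene had 5.21 and 5.04 CPM at day 0, 100 and 113 at day 1, 54.7 and 60.3 at day 2, 116 and 97.4 at day 3, 293 and 239 at day 4, and 286 and 324 at day 5. They rose by 4.38 ± 0.16 at day 1 on the log2 scale, fell by 0.89 ± 0.13 at day 2, and rose by 0.89 ± 0.13 at day 3 and by 1.32 ± 0.13 at day 4. BMP2, the nearest relative of BMP4, began a day later, with 18.4 and 20.7 CPM at day 2, against 2.73 and 2.32 at day 1, and reached 103 and 77.6 at day 4. BMP7 peaked at day 1 with 66.5 and 75.7 CPM, against 13.3 and 18.5 at day 0, and had 30.8 and 21.9 CPM at day 5. Among the receptors, BMPR1A was higher at days 1 and 2 alone, with 228 and 188 CPM at day 1, against 114 and 78.8 at day 0, while ACVR1 and BMPR2 were higher on all 5 days.

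Most of the extracellular antagonists that changed rose. NOG (noggin), which blocks BMP ligands, had 31 and 31 CPM at day 5, against 1.06 and 0.828 at day 0, and rose by 1.76 ± 0.16 on the log2 scale at day 4. BMPER, CHRD and GREM1 were also above day 0 at day 5, and BMPER reached 63.1 and 63.7 CPM, against 0.675 and 0.589 at day 0. FST (follistatin), an activin antagonist, peaked at day 1 with 82.7 and 89.2 CPM, against 9.2 and 11 at day 0. CHRDL1 fell, with 4.44 and 3.89 CPM at day 5, against 22 and 17.8 at day 0. Of 13 antagonists, 6 rose and 0 fell at day 1 (9.02% and 8.95% of all tested genes). At day 5, 8 rose and 3 fell (19.2% and 16.6%).

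Among 25 lateral and extra-embryonic mesoderm genes, 13, 15, 19, 23 and 21 were above day 0 on days 1 to 5, the median log2 difference was 5.89 at day 5, and 20 were sustained rises and 4 transient peaks. Between days 5 and 4, 2 rose and 2 fell (0.44% and 0.547% of all tested genes). FOXF1, a forkhead factor of splanchnic mesoderm, had 8.45 and 4.98 CPM at day 3, against 0.619 and 0.799 at day 2, and 6.29 and 8.44 at day 5. HAND2, the relative of HAND1 used in heart and limb, came later, with 0.816 and 1.28 CPM at day 3, 7.71 and 4.97 at day 4 and 22.5 and 23.7 at day 5. PDGFRA, a mesenchymal growth factor receptor, had 27.6 and 38.6 CPM at day 2, against 2.56 and 3.58 at day 1, and 65.1 and 63.4 at day 5. KDR, the VEGF receptor, peaked at day 1 with 565 and 521 CPM, against 217 and 189 at day 0, and had 210 and 267 CPM at day 5. FOXC1 and FOXC2, which mark more medial mesoderm, were transient peaks. FOXC1 had 58.5 and 44.5 CPM at day 3, against 0.277 and 0.368 at day 0, and 8.48 and 11.4 at day 5.

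Of 16 tested endothelial and blood genes, 4 rose and 5 fell at day 5 (19.2% and 16.6% of all tested genes). TIE1 fell to 2.01 and 1.9 CPM at day 5, against 7.07 and 6.96 at day 0, and PECAM1 stayed at or below 0.594 CPM in all 12 libraries. RUNX1, a blood factor also used elsewhere, rose to 8.48 and 8.29 CPM, against 0.242 and 0.11 at day 0.

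Several genes of the presomitic mesoderm were highest at day 3. DLL1, a Notch ligand of the presomitic mesoderm, had 7.18 and 8.37 CPM at day 0, 2.69 and 2.8 at day 1, 5.57 and 8.18 at day 2, 70.3 and 52.4 at day 3, 27 and 25.9 at day 4, and 11.1 and 11 at day 5. The day 3 libraries lay above all others. DLL1 rose by 3.16 ± 0.21 at day 3 on the log2 scale (adjusted p = 9.08e-05, edgeR quasi-likelihood test). DLL3 had 142 and 120 CPM at day 3, against 26.6 and 45.8 at day 2, and TBX6, the T-box factor of paraxial fate, had 93.6 and 81.8, against 25.7 and 32.7. The clock gene HES7 and RIPPLY2 were also higher at day 3 than at day 2. HES7 had 10.6 and 10.3 CPM at day 3, against 0.948 and 1.52 at day 2, and 1.38 and 1.9 at day 5. RIPPLY2 had 12.7 and 8.44 CPM at day 3, against 0.406 and 1.1 at day 2, and 0.967 and 0.737 at day 5. LFNG, the glycosyltransferase of the clock, fell to 9.8 and 9.48 CPM at day 1, against 42.1 and 42.8 at day 0, and had 29.8 and 29.6 at day 3. Of the later paraxial factors, PAX3 was at or below 0.391 CPM and MEOX1 at or below 0.512 CPM in all 12 libraries. By their course, MEOX1 and TBX18 were still sustained rises, PAX7 was a transient peak and MEOX2 a sustained loss. TBX18 had a mean of 0.708 CPM at day 5, at least 13.2-fold above day 0. Of 11 tested paraxial genes, 5 rose and 3 fell at day 3 against day 0 (13.9% and 12.1% of all tested genes). At day 5, 4 rose and 2 fell (19.2% and 16.6%).

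In the wider Notch list, 6 of 16 tested genes rose and 4 fell at day 3 against day 0 (13.9% and 12.1% of all tested genes). The receptors NOTCH1, NOTCH2 and NOTCH3 differed from day 0 by at most 0.51 on the log2 scale. The targets HES1 and HEY1 rose, HES1 to 55.2 and 67.5 CPM at day 5, against 19.8 and 15.6 at day 0, and HEYL fell to 1.91 and 1.78 CPM, against 4.89 and 7.32.

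Of 16 tested endoderm genes, 6, 8, 10, 11 and 11 were above day 0 on days 1 to 5, with a median log2 difference of 4.35 at day 5, and 1, 1, 2, 2 and 4 were below it. Of all tested genes, 9.02%, 10.1%, 13.9%, 18.7% and 19.2% were higher. GATA6, a zinc finger factor of endoderm and cardiac mesoderm, had 0.121 and 0.129 CPM at day 0, 0.788 and 0.846 at day 1, 51.5 and 61.8 at day 2, 79.9 and 80.7 at day 3, 68.7 and 56.9 at day 4, and 42.7 and 48.2 at day 5. SOX17, which specifies definitive endoderm and primordial germ cells, had 27.2 and 33.6 CPM at day 2, against 1.84 and 2.13 at day 1, and 30.3 and 33.6 at day 5. FOXA2 had 15.1 and 17.7 CPM at day 2, against 0.845 and 0.911 at day 1, and 12.5 and 13.1 at day 5. In all 3 both day 2 libraries lay far above both day 1 libraries. HNF4A (hepatocyte nuclear factor) and APOA1 (an apolipoprotein) came at days 3 to 5, and APOA1 had 17.3 and 18.1 CPM at day 5, against 3.49 and 3.65 at day 4. AFP (alpha-fetoprotein) was below day 0 from day 2 on.

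Of 20 amnion genes, 12, 17, 18, 18 and 18 were above day 0 on days 1 to 5, and 16 were sustained rises. The list shares ISL1, CDX2, BAMBI, DLX5, HEY1, GATA2 and GATA3 with the lists above. TFAP2A, an AP-2 factor that BMP induces in surface ectoderm, amnion and trophoblast, had 33.3 and 36.8 CPM at day 1, against 0.0692 and 0.11 at day 0, and 74 and 72.4 at day 5. VTCN1, an amnion marker, had 10.4 and 6.34 CPM at day 4, against 0.208 and 0.202 at day 0, and 3.74 and 2.81 at day 5. GABRP, another amnion marker, fell at day 1 to 3.44 and 3.04 CPM, against 6.19 and 7.95 at day 0, and was at 33.6 and 30 CPM by day 5. IGFBP3 and IGFBP5 also fell at day 1 and rose from day 2. IGFBP3 had 10.6 and 14.2 CPM at day 0, 2.84 and 2.36 at day 1, 33.4 and 40.2 at day 2, 157 and 129 at day 3, 298 and 243 at day 4, and 198 and 210 at day 5.

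Of 28 trophoblast genes 17 were tested, and 13 of them were above day 0 at day 5, among them GATA2, GATA3, TFAP2A and TFAP2C, which it shares with amnion. Outside those shared genes, SLC40A1 (the iron exporter ferroportin) had 14.7 and 13.7 CPM at day 5, against 0.0865 and 0.0368 at day 0, CGB7 (a chorionic gonadotropin beta gene of a family with near-identical copies) had 5.79 and 7.35, against 1.78 and 1.82, and TP63 had 2.48 and 2.09, against 0.0346 and 0.0736. All 3 were higher at day 5 by the test, and so were 3 genes of low level. VGLL1 (a TEAD cofactor) had 0.768 and 1.02 CPM at day 5, against 0 and 0 at day 0, at least 16.7-fold higher, XAGE2 had 0.285 and 0.328, against 0 and 0, and ERVW-1 (syncytin-1) had 0.341 and 0.512, against 0 and 0.0552. Several other genes that define trophoblast were at or near 0. CGA, CGB3, GCM1, ERVFRD-1, CYP19A1 and ELF5 had at most 9.72 counts in any library, and PSG1, PSG4 and INSL4 had 0 counts in all 12. A count of 0 allows up to 3 counts per library. KRT7, the keratin most used for trophoblast, fell on every day, to 9.62 and 9.46 CPM at day 5, against 15.6 and 17.5 at day 0. KRT19 and KRT8 rose, KRT19 to 740 and 814 CPM, against 137 and 145, and KRT8 to 1740 and 2040 CPM, against 488 and 464.

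Of 25 pluripotency genes, 7, 11, 15, 15 and 18 were below day 0 on days 1 to 5, and 6, 2, 2, 0 and 1 were above it. Lower genes made up 8.95%, 8.6%, 12.1%, 16% and 16.6% of all tested genes on these days. Higher genes made up 9.02%, 10.1%, 13.9%, 18.7% and 19.2%. The median log2 difference of the 25 was -0.06 at day 1 and -0.75 at day 5. POU5F1 (OCT4) had 1910 and 1900 CPM at day 0, 2460 and 2690 at day 1, 1830 and 1990 at day 2, 1420 and 1720 at day 3, 1260 and 1710 at day 4, and 1250 and 1300 at day 5. It was 0.58 ± 0.14 lower on the log2 scale at day 5 (adjusted p = 0.00978, edgeR quasi-likelihood test) and passed on no earlier day. NANOG had 72.8 and 88.9 CPM at day 0, 252 and 201 at day 1, 150 and 120 at day 2, 69.2 and 73.6 at day 3, 88.3 and 64 at day 4, and 77.8 and 61.5 at day 5. It rose by 1.49 ± 0.20 at day 1 and did not pass the test against day 0 from day 3 on. SOX2 went down further, with 153 and 130 CPM at day 5, against 385 and 340 at day 0, a difference of -1.36 ± 0.15.

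Several members fell by more on the log2 scale. ESRG, a long non-coding RNA of pluripotent cells, had 2680 and 2430 CPM at day 0, 1730 and 1690 at day 1, 1740 and 1440 at day 2, 853 and 886 at day 3, 562 and 618 at day 4, and 587 and 394 at day 5. Its deepest values were at days 4 and 5. TERF1 (a telomere binding protein), TDGF1 and PRDM14 (a transcriptional repressor) differed from day 0 by -1.71, -1.94 and -1.71 on the log2 scale at day 5. LNCPRESS1, the RNA under study, had 21.9 and 42.5 CPM at day 0, 23.6 and 22.2 at day 1, 10.7 and 10.6 at day 2, 11 and 13.2 at day 3, 12.1 and 17.1 at day 4, and 14.9 and 13.5 at day 5. It was below day 0 from day 2 on, with a difference of -1.59 ± 0.28 at day 2 (adjusted p = 0.00344, edgeR quasi-likelihood test). The day 0 libraries were unequal for LNCPRESS1, though both lay above all libraries of days 2 to 5. The part of this inequality in the size of the fall was not tested. UTF1 dipped and recovered, with 9.69 and 8.27 CPM at day 2, against 31.4 and 25.7 at day 0, and 30.3 and 28.5 at day 5.

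Neuroectoderm genes moved in both directions. At day 2, 2 of 18 tested rose and 6 fell against day 0, and at day 5, 9 rose and 4 fell. Of all tested genes, 10.1% rose and 8.6% fell at day 2, and 19.2% and 16.6% at day 5. SOX1 was at 0 in both day 5 libraries, and PAX6 was at or below 0.696 CPM in all 12. SIX3, FEZF1, LHX5 and DLK1 rose late. SIX3, a homeobox factor of anterior tissue, had 25.4 and 27.6 CPM at day 5, against 0.432 and 0.478 at day 0, and FEZF1 had 17.1 and 16.8, against 1.89 and 1.05.

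Of 20 tested HOX genes, which set position along the body axis, 5, 7, 13, 17 and 18 were above day 0 on days 1 to 5, none was below it, and the median log2 difference was 8.28 at day 5. HOXD1 was among the 5 of day 1 and had 2.71 and 3.17 CPM at day 1, against 0.0519 and 0.0368, and 0.413 and 0.471 at day 5. The HOXB cluster came at days 3 to 5. HOXB3 had 0 CPM in all 4 libraries of days 0 and 1, 0.116 and 0.0761 at day 2, 2.54 and 1.12 at day 3, 15.7 and 8.09 at day 4, and 18.5 and 26.4 at day 5. HOXB6 and HOXB8 had 14.4 and 17.7 CPM and 4.2 and 7.23 CPM at day 5, against 0 in all day 0 libraries, at least 300-fold and 107-fold higher. HOXB13, at the far end of the cluster, did not pass the test on any day. Since the levels at day 0 are 0, fitted log2 differences of these genes depend on the prior count that edgeR adds by default. The other caudal genes, CDX1 and CDX4, were transient peaks. CDX1 had 8.74 and 7.44 CPM at day 3, against 0.0346 and 0.0368 at day 0, and CDX4 rose at day 1 alone, to 4.9 and 4.86 CPM, against 2.09 and 1.75.

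Of 21 collagen and matrix genes, 9, 13, 14, 18 and 20 were above day 0 on days 1 to 5. FN1 (fibronectin) was early, with 1800 and 2150 CPM at day 1, against 357 and 386 at day 0, and 4060 and 5080 at day 5. POSTN (periostin) was transient, with 45.3 and 33.5 CPM at day 1, against 1.42 and 1.03 at day 0, and 2.8 and 1.81 at day 3. COL1A1 dipped to 135 and 125 CPM at day 2, against 341 and 282 at day 0, and had 824 and 757 at day 5. TGFBI, a secreted matrix protein, had 298 and 333 CPM at day 5, against 9.98 and 9.66 at day 0.

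Among 17 genes of the epithelial-mesenchymal transition, 11 rose and 2 fell at day 5 (19.2% and 16.6% of all tested genes). SNAI1, a repressor of E-cadherin in the streak, had 10.2 and 9.72 CPM at day 0, 8.2 and 9 at day 1, 24.1 and 28.3 at day 2, 57.7 and 51.9 at day 3, 51.8 and 49.7 at day 4, and 37.1 and 42.2 at day 5. It rose by 1.61 ± 0.13 on the log2 scale at day 2 against day 1. SNAI2 and ZEB2 rose at day 3, with 27.6 and 16.6 CPM for SNAI2, against 2.44 and 2.24 at day 2, and 13.2 and 10.8 CPM for ZEB2, against 1.57 and 1.54. VIM (vimentin) was lower at days 1 and 2, with 119 and 110 CPM at day 1, against 236 and 205 at day 0, and had 1030 and 1130 CPM at day 5. Of the epithelial genes, CDH1 (E-cadherin) rose at days 1 and 2 and did not pass the test later, with 313 and 272 CPM at day 5, against 350 and 292 at day 0, and EPCAM passed on no day. CLDN6 and ESRP1 fell at day 5 by 0.51 and 0.67 on the log2 scale.

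YAP targets and contractile genes dipped at day 2 and rose after it. Of 14, 7 rose and 1 fell at day 1, 3 rose and 8 fell at day 2, and 12 rose and 0 fell at day 5, all against day 0. The shares of all tested genes that rose and fell were 9.02% and 8.95%, 10.1% and 8.6%, and 19.2% and 16.6%. From day 1 to day 2, 7 fell and 1 rose (8.73% and 9.2% of all tested genes). At day 4 against day 3, 10 rose and 0 fell (1.45% and 0.65%). TAGLN, a smooth muscle actin-binding protein, had 57.7 and 48.9 CPM at day 0, 122 and 142 at day 1, 32.1 and 32.7 at day 2, 53.5 and 70.6 at day 3, 108 and 141 at day 4, and 166 and 188 at day 5. It fell by 2.03 ± 0.18 at day 2 on the log2 scale (adjusted p = 0.000124, edgeR quasi-likelihood test). The matricellular target CCN2 had 223 and 223 CPM at day 5, against 106 and 115 at day 4 and 49 and 55.3 at day 0. ACTC1, cardiac actin, had 420 and 456 CPM at day 5, against 14.3 and 13.8 at day 0.

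Of 18 tested imprinted genes, 12 rose and 1 fell at day 5. H19, a growth-restraining long non-coding RNA, had 7.78 and 11.8 CPM at day 0, 4.55 and 4.27 at day 1, 12.2 and 14.1 at day 2, 113 and 74.7 at day 3, 513 and 336 at day 4, and 750 and 841 at day 5. IGF2, its neighbour on chromosome 11 and a growth factor, had 238 and 182 CPM at day 5, against 4.44 and 4.55 at day 0. DLK1 and PLAGL1 rose too, while SNRPN fell, with 562 and 528 CPM at day 5, against 791 and 803.

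CDKN1A (p21), an inhibitor of cyclin-dependent kinases, had 21.9 and 11.2 CPM at day 0, 17.2 and 17.9 at day 1, 13.8 and 13.5 at day 2, 33.1 and 38.6 at day 3, 77.5 and 73 at day 4, and 181 and 239 at day 5. Of 24 p53 targets, 2 rose at day 1 and 15 at day 5 (9.02% and 19.2% of all tested genes), GDF15 to 54.5 and 75.1 CPM, against 3.6 and 6.64 at day 0, while MDM2 and CCNG1 did not pass on any day. Of 13 immediate early genes, 11 rose and 0 fell at day 5. Of 23 cell cycle genes, 5 rose at day 1, 5 fell at day 3, 1 rose and 8 fell at day 4 and 2 rose and 5 fell at day 5 (12.1%, 16% and 16.6% of all tested genes fell on days 3, 4 and 5), and none fell into a course class. MKI67, a proliferation marker, stayed between 149 and 313 CPM and passed on no day. Stress genes differed between the 2 day 0 libraries. CHAC1, a target of the integrated stress response, had 26.9 and 179 CPM there, and ATF5, TRIB3 and SESN2 were also higher in library b, and 6 of 13 genes of this list fell and 2 rose at day 5. The part of the unequal day 0 libraries in these falls was not tested.

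Of 23 glycolytic genes, 1 rose and 10 fell at day 1 against day 0 (9.02% and 8.95% of all tested genes), and 10 rose and 0 fell at day 2 against day 1 (9.2% and 8.73%). The others did not pass the test, and 1 of the 23 was a transient dip. LDHA (lactate dehydrogenase A) had 650 and 692 CPM at day 1, against 1410 and 884 at day 0, and 1450 and 1520 at day 2. The lactate exporter SLC16A3 had 26.5 and 36.5 CPM at day 1, against 104 and 66.1 at day 0, and 129 and 162 at day 2. Day 1 was the lowest pair for both. The day 0 libraries were unequal here, and HK2, SLC2A1 and STC1 were higher in library a of day 0 (268, 659 and 294 CPM) than in library b (152, 389 and 175 CPM). The part of this in the day 1 falls was not tested, and the day 2 rises do not use day 0. Of 21 genes of oxidative phosphorylation, 0 rose and 8 fell at day 3 and 0 rose and 3 fell at day 5 (12.1% and 16.6% of all tested genes fell).

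**Figure D5:**
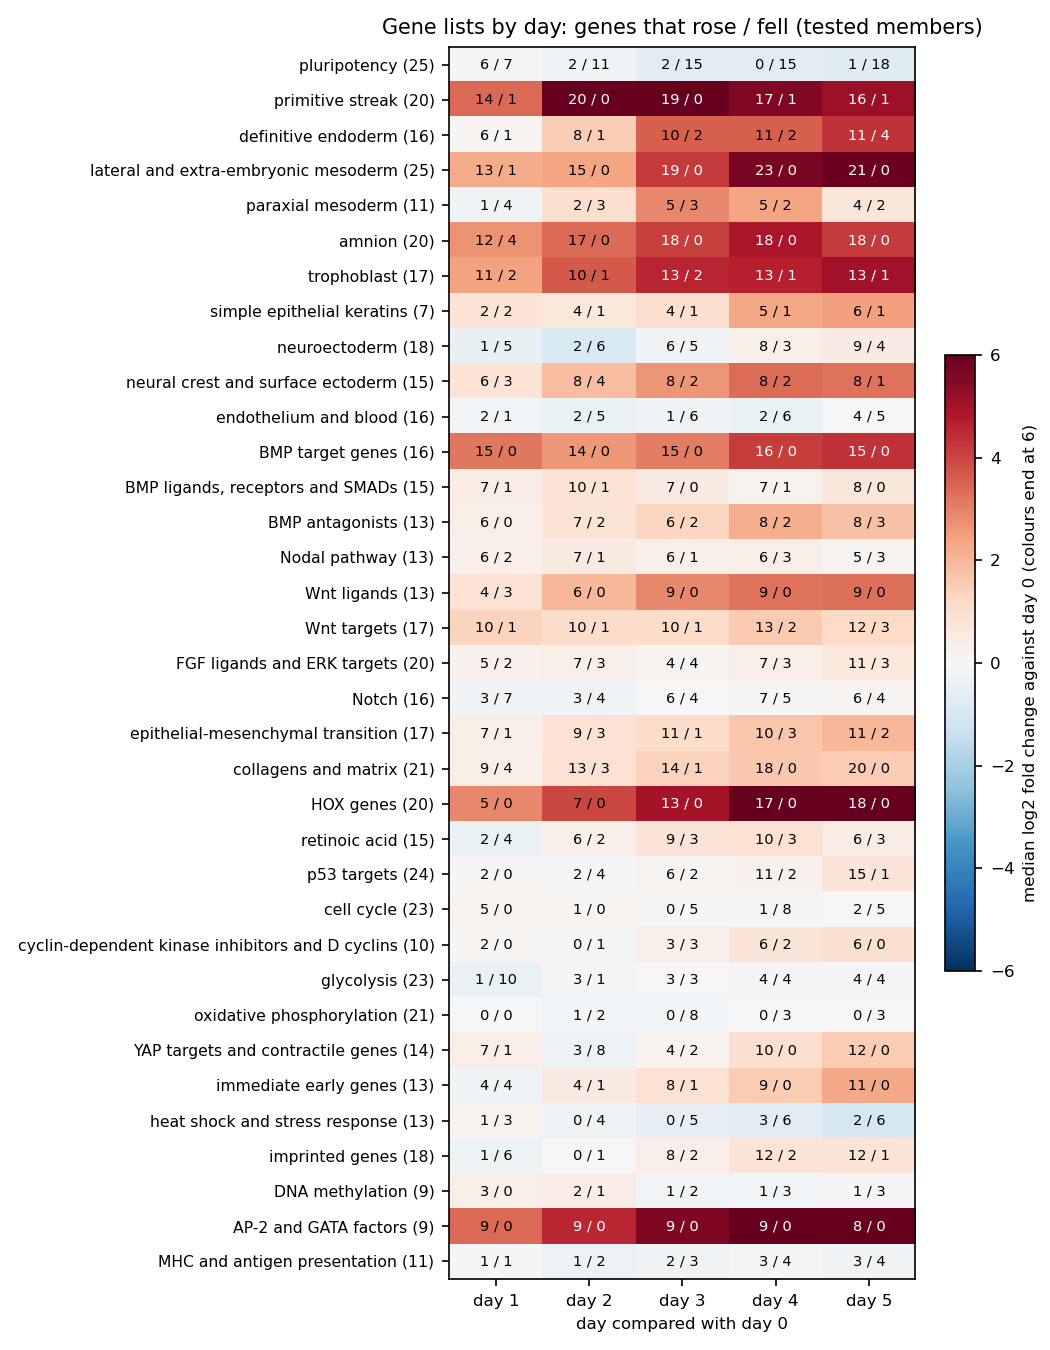
Median log2 difference from day 0 (colour, ending at 6) of 35 gene lists (down the page) on days 1 to 5 (across), with the number of members that rose and fell in each cell. Streak genes were strongest at days 2 and 3, HOX genes at days 4 and 5, and pluripotency genes fell by day 5 in 18 of 25.

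Against the other courses, taken in a fit of the 32 unedited libraries (24148 genes tested, CPM scaled over those libraries and so slightly different from those above), differences were counted at days 2 and 5. At day 2, 7463 genes differed from the neuroectoderm course (30.9%) and 10799 from the endoderm course (44.7%), and at day 5 13031 (54%) and 14343 (59.4%). Streak genes were higher in BMP4 cells than in SMADi cells in 20 of 20 at day 2 (15.6% of all tested genes were higher), and against Endo cells 8 were higher and 10 lower (22.7% and 22% of all). TBXT had 140 and 151 CPM in BMP4 cells at day 2, against 8.05 and 7.11 in Endo cells (log2 difference 4.26 ± 0.15, adjusted p = 2.28e-15, edgeR quasi-likelihood test). EOMES ran the other way, with 107 and 103 CPM in BMP4 cells, against 1180 and 1160 in Endo cells, and so did CER1, with 221 and 262 CPM, against 7590 and 7780. HAND1 at day 2 was not distinguishable between BMP4 cells (31.6 and 36.3 CPM) and Endo cells (23.4 and 30.8 CPM; log2 difference 0.33 ± 0.24, adjusted p = 0.287, edgeR quasi-likelihood test).

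At day 5 HAND1 had 209 and 242 CPM in BMP4 cells, against 0.254 and 0.389 in Endo cells and 0 and 0.0363 in SMADi cells. Of 25 lateral mesoderm genes, 23 were higher and 0 lower in BMP4 cells than in SMADi cells, and 19 were higher and 3 lower than in Endo cells. At day 2 the count against Endo cells ran the other way, with 4 higher and 12 lower in BMP4 cells, while 18 were higher and 1 lower than in SMADi cells. Of all tested genes at day 5, 28.8% were higher and 25.1% lower in BMP4 cells than in SMADi cells, and 31.6% higher and 27.8% lower than in Endo cells. ID1 had 359 and 364 CPM in BMP4 cells, against 7.17 and 8.4 in Endo cells, and 13 of 16 BMP targets were higher and 2 lower. SOX17 had 29.4 and 32.4 CPM in BMP4 cells, against 414 and 412 in Endo cells, and 1 of the endoderm genes was higher and 15 lower than in Endo cells. PAX6 had 0.372 and 0.67 CPM in BMP4 cells, against 137 and 158 in SMADi cells, and 17 neuroectoderm genes were lower and 0 higher. POU5F1 and SOX2 were higher in BMP4 cells than in Endo cells, with 1210 and 1250 CPM for POU5F1, against 8.51 and 8.23, and 148 and 125 CPM for SOX2, against 0.0976 and 0.111. SOX2 was lower in BMP4 cells than in SMADi cells, which had 626 and 634 CPM (log2 difference -2.21 ± 0.13). POU5F1 was higher in BMP4 cells than in SMADi cells, which had 132 and 135 CPM of it (log2 difference 3.21 ± 0.11). Of the pluripotency genes 18 were higher and 5 lower in BMP4 cells than in Endo cells at day 5. Against SMADi cells, 17 were higher and 6 lower.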

How the data were processed

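Polyadenylated RNA of H1 cells was made into stranded libraries (Illumina Stranded mRNA Prep) and mapped to GRCh38, per the labels' protocols and the submitters' processing notes. For the aligner, quantifier, annotation and BMP4 dose, each was not given in the sources used here. The authors deposited expected counts (estimated counts) per gene, whose file name calls them length scaled. They were rounded to whole numbers here. Libraries held 48265562 to 71219834 counts.

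The 12 libraries were fitted together in edgeR 4.0.16 (R 4.3.3) with one mean per day (6 residual degrees of freedom), TMM scaling and filterByExpr. The quasi-likelihood test was used, with Benjamini-Hochberg adjustment per comparison and calls under 0.05. Fitted log2 differences kept edgeR's default prior count. A prior count of 2 entered only the log2 CPM behind the principal components and the b minus a differences. Differences to the other courses came from a fit of 32 unedited libraries (16 residual degrees of freedom). Course classes used calls of at least 2-fold between any 2 days. Folds against 0 used a floor of 3 counts per library, which covers counting error only. Gene positions and names came from the files and GENCODE 29, which held 58279 of 62703 identifiers. The scripts were tested on simulated data.

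The letters a and b pair the libraries by their values: the b minus a differences correlated at 0.261 to 0.555 in 15 of 15 pairs of days (14265 genes). No batch is named in the labels. The fit without the letter was used and the fit with it is given where a count moved. Alternatives were DESeq2 1.42.0 size factors and its Wald test, limma 3.58.1 voom, no filter, the block, all 96 differentiation libraries, leaving out each library, and class folds of 1.5 and 4.

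Genes were named if they were markers, the 5 highest rises or deepest falls of a comparison (at least 5 CPM), the leading genes of a class, up to 4 changed members of a list, or members of opposite roles. Other list members were chosen after their values were seen. The members and lists were chosen with earlier results of these data known. Some items are not reported here.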

Additional observations from a re-analysis of the deposited data

How the results depend on the processing

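Calls of single genes were checked for the markers, the highest rises and deepest falls, the class leaders and the leading list members. None of these calls changed sign under any alternative that was run. Other genes given above were not checked in this way, among them POU5F1, NANOG, SOX2, LNCPRESS1 and ID1. The order of the days by their counts against day 0 turned without single libraries of days 0, 2, 3, 4 and 5. DESeq2 size factors and limma voom moved no count by over 1.5 times. Without the filter the counts were 4282 (day 3 against day 2), 1967 (day 4 against day 3) and 994 (day 5 against day 4), with 870 transient peaks and 73 genes of peak then loss. With the replicate block they were 6463 (day 1 against day 0), 7198 (day 2 against day 0), 6747 (day 2 against day 1), 5532, 2700 and 887 (the next 3 steps), and with all 96 libraries 7012, 7580, 7069, 5909, 2829 and 1430. The DESeq2 Wald test gave 3749, 1456 and 735 for the last 3 steps. A class fold of 1.5 gave 996 transient peaks, 137 of peak then loss, 3076 sustained rises and 827 transient dips, and a fold of 4 gave 209, 5, 1093 and 166, with 880 sustained losses. The cause was not tested.

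Leaving out 1 library gave, for days 1 to 5 against day 0, 1964 to 4341, 1905 to 4674, 3310 to 6197, 5315 to 7449 and 5013 to 8411 genes. The day-to-day steps gave 1412 to 4438, 450 to 2873, 80 to 453 and 31 to 215, and 10043 to 12785 genes showed any change. Classes ranged over 362 to 583 transient peaks, 26 to 45 of peak then loss, 1707 to 2037 sustained rises, 1496 to 2350 sustained losses and 329 to 543 transient dips. A day left with 1 library is assumed to vary like the others.

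Of 1278 calls of the genes checked singly, the block lost 0, DESeq2 size factors 2 and the DESeq2 Wald test 6. No filter lost 9, the 96 libraries 26 and limma voom 64, and leaving out 1 library lost 57 to 146. With 2 libraries a day, a difference that missed the threshold is not shown to be absent.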

Other observations

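Regulators of apoptosis fell more often than they rose. Of 13 tested, 0 rose and 4 fell at day 2, and 2 rose and 8 fell at day 5, against 19.2% and 16.6% of all tested genes, with a median log2 difference of -0.80 at day 5. PMAIP1 (NOXA), a p53-induced promoter of cell death, had 54 and 42.9 CPM at day 5, against 114 and 90.6 at day 0. The anti-apoptotic BCL2L1 had 55.4 and 52.6 CPM, against 88.5 and 104.

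Among 9 genes of DNA methylation, 3 rose at day 1, and 1 rose and 3 fell at day 5 (19.2% and 16.6% of all tested genes, and 9.02% rose at day 1). The de novo methyltransferase DNMT3B had 724 and 653 CPM at day 5, against 1620 and 1490 at day 0. The 5-methylcytosine oxidase TET2 had 12.9 and 13.4 CPM at day 2, against 2.99 and 3.18 at day 0. Of 11 genes of antigen presentation, 3 rose and 4 fell at day 5 (the same shares of all tested genes). B2M, the light chain of class I molecules, had 105 and 102 CPM at day 1, against 46.9 and 46.2 at day 0, while the peptide transporter TAP1 had 11.9 and 11.5 CPM at day 5, against 23.5 and 23.7. Of 10 tested primordial germ cell genes, 5 rose and 2 fell at day 5. PRDM1 (BLIMP1) had 7.23 and 7.21 CPM at day 5, against 0.19 and 0.202 at day 0, NANOS3 rose (log2 difference 3.17), DAZL fell (-1.82), and DND1 did not pass the test on any day. Of 15 tested neural crest and surface ectoderm genes, 8 rose and 1 fell at day 5. DLX6 had 4.32 and 4.05 CPM at day 5, against 0.0692 and 0.092 at day 0.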
